A study of Homo sapiens with 15 samples.

Results

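The histone cluster genes encode the core histones H2A, H2B, H3 and H4 and the linker histone H1, and sit in 4 groups whose number is part of the gene symbol: HIST1 on chromosome 6, HIST2 and HIST3 on chromosome 1 and HIST4 on chromosome 12. They were taken from the deposited gene-count table by symbol alone, as every entry that begins with HIST1H, HIST2H, HIST3H or HIST4H. This gave 73 of 23346 gene symbols, made up of 6 H1, 18 H2A, 20 H2B, 14 H3 and 15 H4 genes. The study followed the human embryonic stem cell line H9 through differentiation to definitive endoderm, the germ layer that forms gut, liver and pancreas. Cells were sampled daily for bulk RNA-seq up to day 4, and each day has 3 libraries, labelled replicates 1, 2 and 4. The day 0 group was undifferentiated cells kept in E8 medium. The day 1 group had been given activin A and CHIR99021 (an inhibitor of GSK3 that activates Wnt signalling) in Advanced RPMI 1640, and the groups of days 2, 3 and 4 had gone on with activin A alone in that medium. Day 0 therefore differs from every later day in medium as well as in time and factors, and these cannot be told apart.

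Most histone cluster genes are replication-dependent: they are transcribed in S phase, when new DNA must be packed into nucleosomes, and their mRNAs end in a conserved stem-loop instead of a polyA tail. The stem-loop binding protein SLBP and the U7 snRNP direct the cut after it, and the mRNAs are degraded when DNA synthesis stops. A few cluster genes are also known to give longer, spliced or polyadenylated transcripts, particularly in cells that have left the cycle or are differentiating. The libraries were made from polyA-selected RNA, so the values below describe the polyadenylated RNA of these genes and whatever RNA without a tail the selection carried over, not their total mRNA.

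Library totals ran from 54723184 to 145857940 counts, and histone cluster genes took 0.00210% to 0.0207% of them. The stem cell markers POU5F1 and SOX2 went from day 0 means of 449 and 201 CPM (counts brought to a common library size) to 54.6 and 8.17 CPM on day 4, while the endoderm genes SOX17 and FOXA2 went from 0.844 and 10.5 CPM to 175 and 157 CPM. SOX1, PECAM1 and CGA, listed for neural, endothelial and trophoblast cells, had day means of at most 0.377 CPM, but other genes of those lists were present. CDX2, listed for trophoblast, had a mean of 75.6 CPM on day 1 and at most 1.03 CPM on the other days. PAX6 had a mean of 26.8 CPM on day 4, where replicate 2 held 60.5 CPM and the others 2.34 and 17.5. Mesoderm genes were present as well, though HAND1 had been listed for trophoblast and KDR for blood and endothelium. HAND1 had day means of 123, 139 and 78.0 CPM on days 2, 3 and 4 (262 CPM in day 3 replicate 1). By day mean, MESP1 reached 25.1 CPM on day 1, TBX6 stayed at or below 6.07 CPM and KDR lay between 116 and 259 CPM. Single libraries went beyond these means. TBX6 and KDR were highest in day 3 replicate 4 (7.91 and 366 CPM), and KDR was lowest in day 4 replicate 2 (46.0 CPM). MESP1 stood at 38.4 CPM in day 2 replicate 4 and 35.9 CPM in day 3 replicate 4, in each case the highest library of its day. Replicate 1 of days 3 and 4 stood apart in the streak gene EOMES, at 60.3 and 81.6 CPM (326 to 452 in the other libraries of those days). It also did in the endoderm genes GATA6, at 143 and 124 (570 to 788), and CER1, at 478 and 397 (1867 to 4478). Other endoderm genes differed. FOXA2 was highest in day 3 replicate 1 (252 CPM, against 116 and 48.2), where SOX17 and HHEX lay between the other libraries. In day 4 replicate 1, SOX17 was lowest (74.5 CPM, against 204 and 246), and FOXA2 and HHEX lay between the others. CXCR4 was lowest in replicate 1 on both days. Replicate 4 of days 3 and 4 kept POU5F1 at 199 and 119 CPM, against 16.8 to 28.0 in the others. The part of these markers and libraries in the histone results was not tested. Counts of called genes are also given without replicate 1 of days 3 and 4. Nothing in the labels says whether replicates were separate cultures, and the spread behind each p-value may therefore be technical.

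The promoters of the cluster genes carry short motifs known from their regulation: the octamer ATTTGCAT, bound by the POU factor OCT1 (POU2F1) at H2B genes, the CCAAT box and the TATA box. Promoter sequences (RefSeq, GRCh38.p14, 250 bases before to 50 after the start) were matched for 59 of the 73 genes by symbol or synonym. The first 150 bases upstream of the start are shown for 4 genes. HIST1H2BK is the H2B gene that supplied most histone counts here, HIST1H2AC and HIST2H2BE are its most abundant H2A and H2B relatives, and HIST1H1C is a linker gene that was not called. They lie at chr6:27146859-27147008 (minus strand), chr6:26124022-26124171 (plus strand), chr1:149886683-149886832 (minus strand) and chr6:26056471-26056620 (minus strand), and capitals mark the octamer, CCAAT and TATAAA on either strand.
HIST1H2BK: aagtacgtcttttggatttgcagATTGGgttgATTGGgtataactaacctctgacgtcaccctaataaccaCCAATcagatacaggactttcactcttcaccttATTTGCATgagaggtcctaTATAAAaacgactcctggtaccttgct
HIST1H2AC: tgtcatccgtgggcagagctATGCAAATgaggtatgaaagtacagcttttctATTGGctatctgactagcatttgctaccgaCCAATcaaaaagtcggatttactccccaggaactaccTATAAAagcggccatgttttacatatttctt
HIST2H2BE: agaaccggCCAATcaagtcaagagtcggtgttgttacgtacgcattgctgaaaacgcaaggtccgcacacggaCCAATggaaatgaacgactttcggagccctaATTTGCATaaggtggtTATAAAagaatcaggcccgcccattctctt
HIST1H1C: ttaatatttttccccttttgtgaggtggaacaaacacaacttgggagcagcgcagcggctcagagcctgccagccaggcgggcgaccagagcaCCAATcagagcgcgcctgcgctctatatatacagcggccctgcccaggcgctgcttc
Over the whole 300-base window and both strands, ATTTGCAT stood in 21 of the 59 histone promoters (35.6%) against 1.8% of 27305 RefSeq promoters: in 11 of 16 H2A, 9 of 12 H2B and 1 of 12 H3 genes, and in 0 of 6 H1 and 0 of 13 H4 genes. The H3 gene was HIST1H3D, for which RefSeq lists 2 starts. The first, used here, is also the start of HIST1H2AD, so that 1 sequence was counted under both genes. The window of the second start does not hold the octamer. In 8 pairs of an H2A and an H2B gene that start 194 to 248 bases apart in opposite directions, the windows overlap. An octamer there can count under both genes, so the 21 are not all separate sequences. CCAAT stood in 49 of 59 (83.1%; 35.7% of all promoters) and TATAAA in 39 of 59 (66.1%; 12% of all promoters). The H4 promoters had CCAAT in 3 of 13, while every matched H1, H2A, H2B and H3 promoter had it.

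The end of the mRNA separates the replication-dependent form from a polyadenylated one. The stem-loop was searched in GENCODE 29 transcripts (GRCh38), on the transcribed strand, after the end of the coding sequence. Its pattern was GGNNCT and AGNNCC as the sides of the stem around a loop of TTTN. It was found for 31 of the 73 genes. Only 29 of the 73 had at least 100 annotated bases after the coding sequence. The loop is in capitals in the 5 forms found, each named by the genes that hold it.
Form of HIST1H2AC, HIST2H2BE and 15 others: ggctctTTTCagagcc
Form of HIST1H2BC, HIST1H2BD, HIST1H2BF, HIST1H3G and HIST3H3: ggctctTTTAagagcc
Form of HIST1H4B, HIST1H4E, HIST1H4H, HIST1H4J and HIST4H4: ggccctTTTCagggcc
Form of HIST1H4I, HIST2H4A and HIST2H4B: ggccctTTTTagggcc
Form of HIST1H2AG: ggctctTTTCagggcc
Among 19598 other coding genes, searched in the same way after the coding end, 13 (0.0663%) held these letters, H2AFX among them. For 22 genes, including HIST1H2AC, HIST2H2BE, HIST1H3G and HIST1H2AG, an annotated transcript ran more than 100 bases past the stem-loop, as a polyadenylated form would. The annotated HIST1H2BK transcript in that set covers the 381 coding bases alone, so its end could not be searched. Annotation is incomplete for many of these genes, and a gene with no match may hold the stem-loop outside its annotated transcript.

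HIST1H2BK, which encodes a replication-type H2B and is known to give polyadenylated mRNA, dominated the histone RNA in these libraries. On day 0 it stood at 149, 81.5 and 66.4 CPM in replicates 1, 2 and 4, on day 1 at 111, 104 and 57.0 CPM, and on day 2 at 169, 157 and 72.6 CPM. On day 3 it stood at 19.0, 17.1 and 25.0 CPM and on day 4 at 13.4, 22.2 and 22.6 CPM. The 6 libraries of days 3 and 4 were all below the 9 libraries of days 0 to 2, and replicate 4 was the lowest library on each of days 0, 1 and 2.

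Day means of HIST1H2BK were 99.0 ± 44.1, 90.9 ± 29.6, 133 ± 52.6, 20.4 ± 4.13 and 19.4 ± 5.23 CPM (SD, n = 3 each) from day 0 to day 4. By edgeR's quasi-likelihood test with Benjamini-Hochberg adjustment over 17401 genes, HIST1H2BK fell by 2.35 on the log2 scale from day 0 to day 4 (SE 0.41, adjusted p = 0.000519) and by 2.70 from day 2 to day 3 (SE 0.42, adjusted p = 0.00882). By the same edgeR test it did not pass on day 1 against day 0 (log2 fold change -0.12, adjusted p = 0.886), day 2 against day 1 (0.55, adjusted p = 0.451) or day 4 against day 3 (-0.07, adjusted p = 0.994). The day 3 call was lost when the fit held days 2 and 3 alone (edgeR adjusted p = 0.121) and when day 2 replicate 1, day 2 replicate 2 or day 3 replicate 1 was left out (0.0734, 0.0584 and 0.0589). The call of day 4 against day 0 was kept in every such fit.

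**Figure D1:**
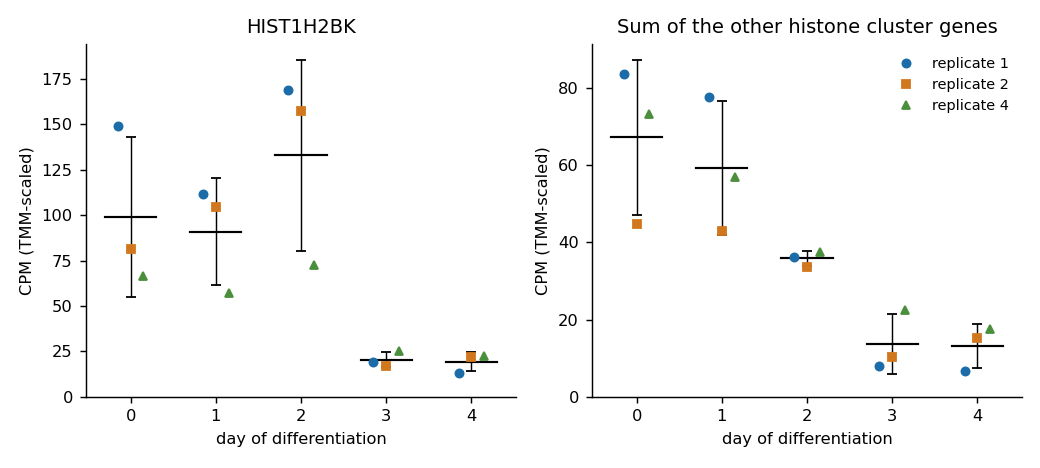
CPM of HIST1H2BK (left) and the summed CPM of the other 72 histone cluster genes (right) in each library by day of differentiation; symbols are replicates, horizontal lines day means and bars ± SD. HIST1H2BK lay between 57.0 and 169 CPM on days 0 to 2 and between 13.4 and 25.0 CPM on days 3 and 4, and the other genes together went from a day 0 mean of 67.2 to 13.1 CPM on day 4.

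HIST1H2BK held 47.5% to 82.4% of all histone cluster counts in a library. Its share averaged 58.7% ± 9.69, 59.9% ± 10.4, 76.9% ± 9.49, 61.8% ± 8.88 and 60.7% ± 5.07 (SD, n = 3) from day 0 to day 4, so that day 2 was highest and the other days differed by less than their spread. Per kilobase of coding sequence, which is an approximation because the authors' gene models are not given, HIST1H2BK had a mean of 190 CPM over the 15 libraries. HIST1H2AC followed with 23.3, HIST1H1C with 9.97, HIST2H2BE with 8.45 and HIST1H2BD with 5.93 CPM per kilobase, so that HIST1H2BK stood 8.17-fold above the next gene. Over all 73 genes levels were low: 10 genes, these 5 among them, had a mean above 1 CPM, 29 lay between 0.1 and 1, 24 below 0.1 and 10 were at 0 in every library.

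The 10 genes at 0 were HIST1H2APS1, HIST1H2BA, HIST1H3C, HIST1H4L and the pairs HIST2H2AA3 and HIST2H2AA4, HIST2H3A and HIST2H3C, and HIST2H4A and HIST2H4B. The members of each pair have identical coding sequences (6 genes). How reads that match several copies were counted is not known, and a listed 0 does not show absence of RNA. The same reserve holds for HIST1H2AI, where 82.3% of the 50-base words of the coding sequence occur in another cluster gene, and in part for HIST2H2BE (46.7%) and HIST1H2BK (22.6%). A filter on low counts kept 50 of the 73 genes for testing; the 13 others with counts had means of at most 0.0525 CPM. A gene that passed the filter through its day 0 libraries alone had to differ from day 4, so counts over the 50 are a description.

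**Figure D2:**
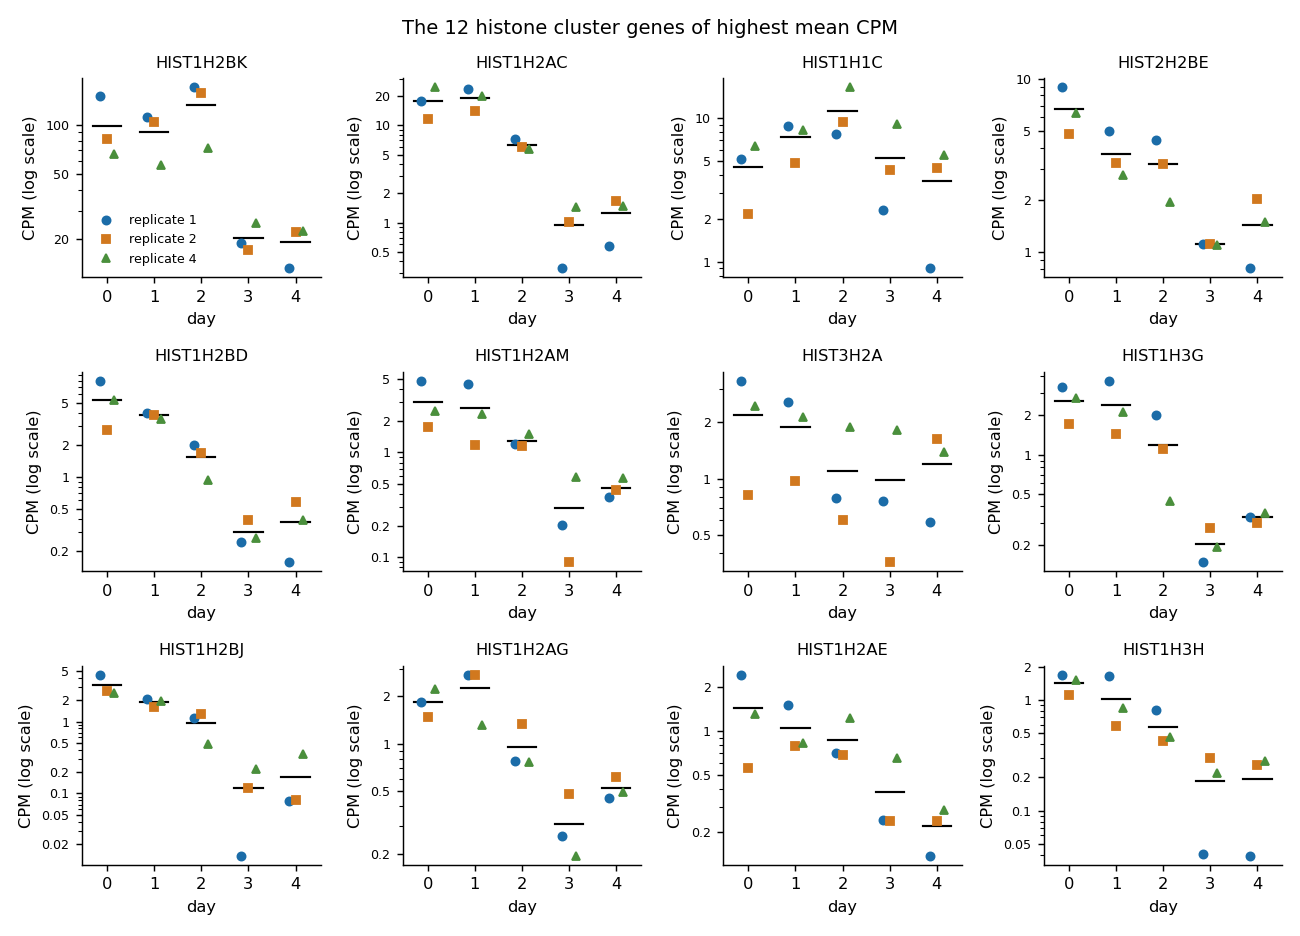
CPM on a log scale by day for the 12 histone cluster genes with the highest mean over all libraries, 1 panel each; symbols are replicates and lines are day means. HIST1H2AC went from a mean of 18.0 to 1.24 CPM and HIST1H2BJ from 3.19 to 0.171 CPM between day 0 and day 4, whereas HIST1H1C was highest on day 2 (11.2 CPM) and HIST3H2A overlapped on all days.

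Across the course, 26 of the 50 tested genes changed by edgeR's joint test of the 5 days (52%; 37.3% of all genes tested were called): 9 of 13 H2A, 7 of 16 H2B, 6 of 8 H3, 4 of 9 H4 and 0 of 4 H1 genes. At an unadjusted p under 0.05 for day 4 against day 0, 28 of the 50 passed (56%; 44.9% of all genes), again with 0 of the 4 H1 genes. Without replicate 1 of days 3 and 4 the joint test called 19 cluster genes, and 19 were called in day 4 against day 0. The share of all genes called in that fit is not given here, so these counts are not set against other genes. Of the 50, 34 had their highest day mean on day 0, 11 on day 1, 3 on day 2 and 2 on day 3, and 34 had their lowest mean on day 3. On day 4 against day 0, 21 of 50 were lower and 0 higher (42% lower, against 16.2% of all genes called lower and 18% called higher), with a median log2 fold change of -2.41 against -0.02 over all genes. The 3 libraries of day 4 lay below the 3 of day 0 for 29 of the 50 (58%; 19.5% of all genes) and above them for 0 (21.1% of all genes). The cells were measured in bulk, so fewer cells with histone mRNA and less of it per cell cannot be told apart.

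**Figure D3:**
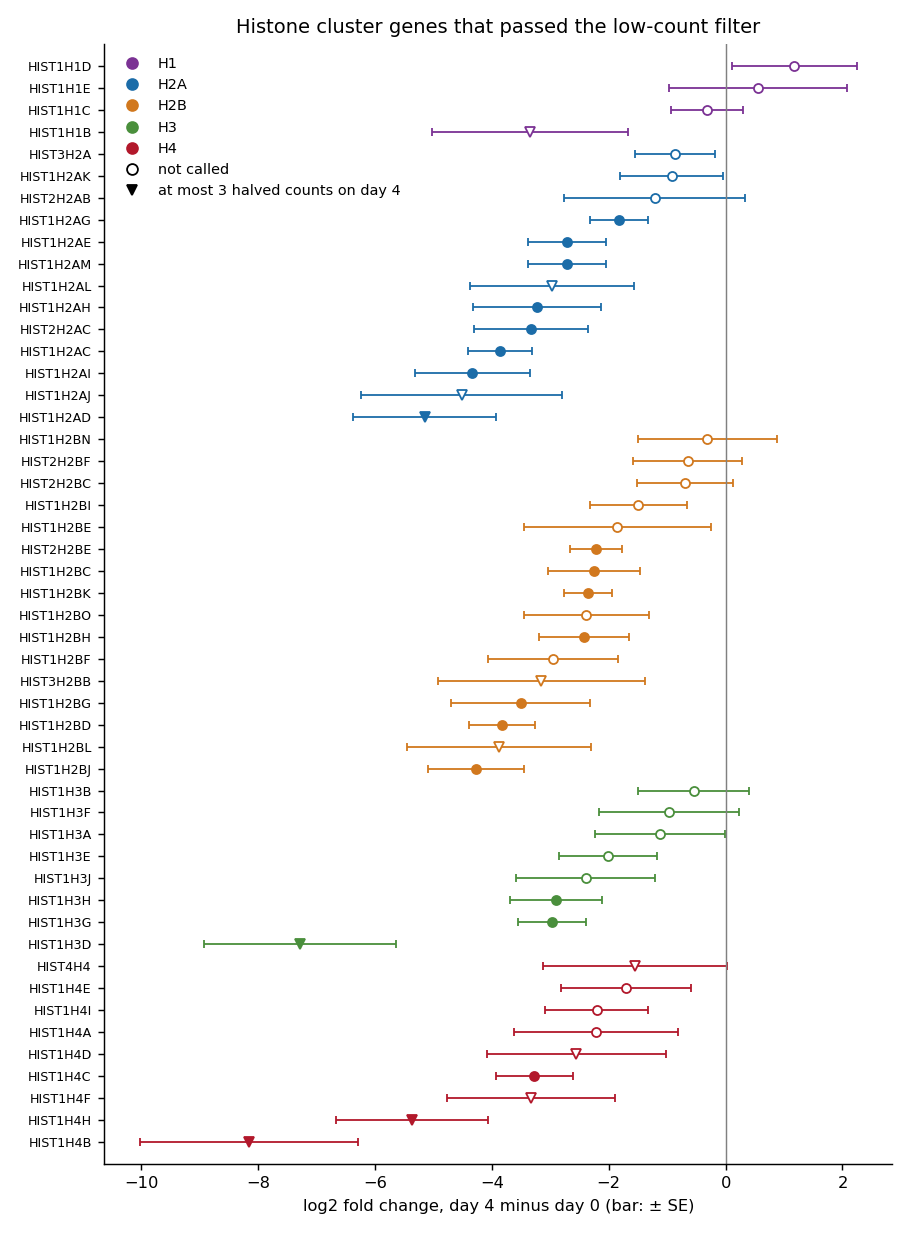
Fitted log2 fold change of day 4 against day 0 (bars ± SE) for the 50 tested histone cluster genes, grouped and coloured by class; filled symbols passed edgeR's test at an adjusted p under 0.05 and triangles had at most 3 halved counts over the day 4 libraries, where the fitted value depends on the prior count and only shows the direction. All 46 core histone genes lie below 0 and 21 of them were called, while the 4 H1 genes lie on both sides.

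The H2A genes, whose proteins pair with H2B in the nucleosome, had 8 of 13 tested members lower on day 4 than on day 0 and a median of -2.97. HIST1H2AC, the most abundant of them, stood at 18.0, 11.5 and 24.6 CPM in the day 0 libraries, 23.5, 14.1 and 20.2 on day 1, 7.27, 5.999 and 5.67 on day 2, 0.340, 1.02 and 1.46 on day 3 and 0.569, 1.68 and 1.48 on day 4. No library of day 2 overlapped with days 0 and 1, nor did any of days 3 and 4 overlap with day 2. HIST1H2AC fell by 3.86 on the log2 scale from day 0 to day 4 (SE 0.55, edgeR adjusted p = 0.000103) and by 2.76 from day 2 to day 3 (SE 0.52, edgeR adjusted p = 0.0223); from day 1 to day 2 it stood at a log2 fold change of -1.61 (edgeR adjusted p = 0.0584). The day 3 call of HIST1H2AC was lost under the same fits as that of HIST1H2BK.

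HIST1H2AM went from 4.78, 1.75 and 2.49 CPM on day 0 to 0.373, 0.439 and 0.565 CPM on day 4 (log2 fold change -2.71, SE 0.66, edgeR adjusted p = 0.00545), with no overlap. HIST1H2AG went from 1.85, 1.47 and 2.23 to 0.452, 0.619 and 0.495 CPM (-1.82, SE 0.49, edgeR adjusted p = 0.0102), and HIST1H2AE from 2.44, 0.556 and 1.31 to 0.137, 0.240 and 0.283 CPM (-2.71, SE 0.66, edgeR adjusted p = 0.00573). In all 3 genes every day 4 library was below every day 0 library. The other H2A genes called lower on day 4 were HIST1H2AD, HIST1H2AH, HIST1H2AI and HIST2H2AC, with day 0 means between 0.468 and 0.900 CPM and day 4 means between 0.0251 and 0.0512 CPM. The HIST1H2AH call was lost without day 0 replicate 1 (log2 fold change -2.32 instead of -3.23), day 1 replicate 1, day 4 replicate 2 or day 4 replicate 4, without replicate 1 of days 3 and 4, and with only the compared days fitted. The HIST2H2AC call was lost without day 0 replicate 1, day 4 replicate 2 or day 4 replicate 4. HIST1H2AL was called by the joint test alone (edgeR adjusted p = 0.0339), on few counts, with day means of 0.141 CPM on day 0, 0 on day 3 and 0.0184 on day 4. For HIST1H2AD this rested on 126 halved counts on day 0 and 3 on day 4, a ratio of 37.4 (95% exact interval 12.51 to 184, counting error only). Counts were halved for such ratios because every deposited value was even. HIST3H2A, the H2A gene of the small HIST3 cluster, stood at 3.29, 0.814 and 2.44 CPM on day 0 and 0.589, 1.62 and 1.38 on day 4; these overlap, and it did not pass (log2 fold change -0.87, edgeR adjusted p = 0.346).

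The H2B genes had 7 of 16 tested members lower on day 4 than on day 0 and a median of -2.37. HIST2H2BE, like HIST1H2BK a gene with known polyadenylated mRNA, stood at 8.90, 4.79 and 6.34 CPM on day 0, 5.02, 3.26 and 2.79 on day 1, 4.44, 3.21 and 1.95 on day 2, 1.11, 1.11 and 1.09 on day 3 and 0.805, 2.02 and 1.48 on day 4. The day 3 libraries all lay below day 2, and those of day 4 below day 0. HIST2H2BE fell by 2.22 on the log2 scale from day 0 to day 4 (SE 0.45, edgeR adjusted p = 0.00164) but did not pass from day 2 to day 3 (-1.53, edgeR adjusted p = 0.108).

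HIST1H2BD, another gene with a polyadenylated form, had day means of 5.31 ± 2.59, 3.78 ± 0.236, 1.54 ± 0.551, 0.301 ± 0.0786 and 0.375 ± 0.211 CPM (SD, n = 3), with 7.93, 2.74 and 5.27 CPM in the day 0 libraries and 0.157, 0.579 and 0.389 on day 4. It fell by 3.82 from day 0 to day 4 (SE 0.56, edgeR adjusted p = 0.000138) and by 2.36 from day 2 to day 3 (SE 0.53, edgeR adjusted p = 0.0475). The latter call was lost in 10 of the 15 fits that left out a library, with library totals alone and with days 2 and 3 fitted alone. HIST1H2BJ stood at 4.43, 2.64 and 2.49 CPM on day 0 and 0.0785, 0.0799 and 0.353 on day 4, a log2 fold change of -4.27 (SE 0.82, edgeR adjusted p = 0.00113) with no overlap. HIST1H2BC (edgeR adjusted p = 0.0384), HIST1H2BG (0.032) and HIST1H2BH (0.0237) were also called lower on day 4, from day 0 means of 1.11, 0.840 and 0.803 CPM to 0.237, 0.0708 and 0.148 CPM. These last 3 calls were lost in several of the fits without a library, HIST1H2BC most often. HIST1H2BO was called by the joint test alone (edgeR adjusted p = 0.0375), with a mean of 0.525 CPM on day 0 and 0.104 on day 4.

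Of the H3 genes, whose proteins form the nucleosome core with H4, 3 of 8 tested were lower on day 4 than on day 0, with a median of -2.20. HIST1H3G stood at 3.34, 1.73 and 2.70 CPM on day 0 and 0.334, 0.299 and 0.353 on day 4 (log2 fold change -2.97, SE 0.58, edgeR adjusted p = 0.0013). HIST1H3H stood at 1.68, 1.11 and 1.52 CPM on day 0 and 0.0393, 0.260 and 0.283 on day 4 (-2.90, SE 0.79, edgeR adjusted p = 0.0108). In both genes the days did not overlap.

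HIST1H3D stood far lower from day 2 on than before, with levels of 1.51, 1.47 and 1.69 CPM on day 0, 1.94, 0.940 and 0.579 on day 1, 0.0737, 0 and 0.164 on day 2, 0.190, 0 and 0 on day 3 and 0, 0 and 0.0353 on day 4. From day 0 to day 4 its halved counts went from 227 to 1, a ratio of 202 (95% exact interval 35.9 to 8022, counting error only; edgeR adjusted p = 0.0034). The step from day 1 to day 2 did not pass edgeR's test (adjusted p = 0.0825). HIST1H3B had its highest day means on days 1 and 2. Its libraries held 0.423, 0.502 and 0.274 CPM on day 2, 0, 0.0300 and 0 on day 3 and 0.0589, 0.0599 and 0.318 on day 4. Its halved counts went from 53 on day 2 to 1 on day 3, a ratio of 60.1 (95% exact interval 10.3 to 2417), called lower by edgeR at an adjusted p of 0.0486, a call that most fits without a library lost. HIST1H3E and HIST1H3J, called by the joint test alone, went from day 0 means of 0.837 and 0.321 CPM to 0.206 and 0.0655 on day 4, and HIST1H3J was at 0 in the 3 libraries of day 3, at least 6.42-fold lower than on day 2 for a floor of 3 halved counts over the day.

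Of the H4 genes, 3 of 9 tested were lower on day 4 than on day 0, with a median of -2.56, and their summed level had the lowest day mean of the 5 classes on every day. HIST1H4C, a gene often read out as an S phase marker, stood at 1.96, 1.83 and 0.666 CPM on day 0, 0.555, 0.382 and 0.416 on day 1, 0.497, 0.678 and 0.247 on day 2, 0.245, 0.150 and 0.413 on day 3 and 0.216, 0.0998 and 0.141 on day 4. Its day 1 libraries were already below day 0, though the step did not pass (log2 fold change -1.72, edgeR adjusted p = 0.0947), and it fell by 3.27 from day 0 to day 4 (SE 0.67, edgeR adjusted p = 0.00172). HIST1H4H went from 1.54, 1.21 and 0.989 CPM on day 0 to 0, 0 and 0.106 on day 4, or 178 halved counts to 3, a ratio of 52.9 (95% exact interval 17.8 to 259; edgeR adjusted p = 0.00533). HIST1H4B went from 0.734, 0.159 and 0.285 CPM on day 0 to 0 in the day 4 libraries, at least 16.0-fold lower for a floor of 3 halved counts over the day (edgeR adjusted p = 0.00462). HIST1H4I, called by the joint test, went from a day 0 mean of 0.467 to 0.0978 CPM (day 4 against day 0, edgeR adjusted p = 0.0642).

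Of the 4 tested linker histone genes, 0 were called by edgeR in any comparison with all 15 libraries fitted. HIST1H1C, the main one and a gene with known polyadenylated mRNA, stood at 5.16, 2.14 and 6.36 CPM on day 0, 8.88, 4.90 and 8.33 on day 1, 7.75, 9.46 and 16.4 on day 2, 2.30, 4.39 and 9.08 on day 3 and 0.903, 4.53 and 5.51 on day 4. Most days overlapped, but every day 2 library was above those of days 0 and 4. HIST1H1C did not pass on day 4 against day 0 (log2 fold change -0.32, SE 0.62, edgeR adjusted p = 0.721), and the sign turned without day 0 replicate 4 (0.07) or day 4 replicate 1 (0.21). HIST1H1D and HIST1H1E, named after their values were seen, were high in a single library: day 3 replicate 4 held 2.62 and 1.70 CPM of them, against at most 0.527 and 0.361 CPM in any other library. The joint test called HIST1H1D when run with DESeq2 and, by edgeR, when day 3 replicate 2 was left out. HIST1H1B, the fourth tested H1 gene, stood between 0.0951 and 0.118 CPM on day 0 and between 0 and 0.0353 on day 4 and was not called (edgeR adjusted p = 0.134). No test compared the H1 class with the core histone classes.

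**Figure D4:**
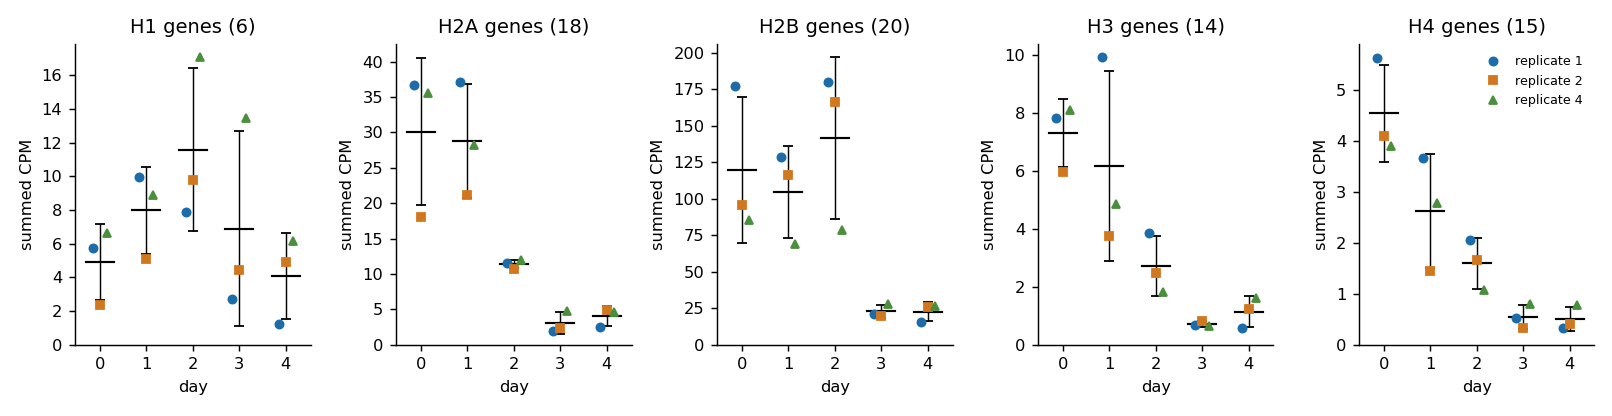
Summed CPM of the histone cluster genes of each class in each library by day; symbols are replicates, lines day means and bars ± SD, and the number of genes in a class is in its title. H2A, H2B, H3 and H4 sums were lower on days 3 and 4 than on day 0 in every library, while the H1 sum had its highest day mean on day 2 (11.6 CPM) and overlapped between day 0 (4.90) and day 4 (4.11).

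Summed over a class, H2A went from 30.1 ± 10.4 CPM on day 0 and 28.8 ± 8.06 on day 1 to 11.4 ± 0.610, 3.07 ± 1.54 and 4.05 ± 1.37 on days 2, 3 and 4 (SD, n = 3). H2B stayed between 105 ± 31.2 and 142 ± 55.2 CPM up to day 2 and then stood at 22.8 ± 4.44 and 22.7 ± 6.29. Without HIST1H2BK the H2B sum was 20.4 ± 6.80, 13.6 ± 2.87, 8.52 ± 2.67, 2.42 ± 0.354 and 3.34 ± 1.08 CPM, with a lower mean at each step to day 3, as in H3 (7.29 ± 1.17, 6.17 ± 3.28, 2.72 ± 1.04, 0.712 ± 0.0914 and 1.14 ± 0.522) and H4 (4.54 ± 0.9496, 2.63 ± 1.12, 1.60 ± 0.4995, 0.554 ± 0.236 and 0.503 ± 0.239). The H1 sum was 4.90 ± 2.26, 7.98 ± 2.57, 11.6 ± 4.84, 6.89 ± 5.78 and 4.11 ± 2.55 CPM. On day 3 it was 3.59 CPM without replicate 4. The day 0 mean was thus 7.44, 5.26, 6.37 and 9.02 times the day 4 mean for H2A, H2B, H3 and H4 and 1.19 times for H1. H1 made up 3.02% ± 1.53 of histone counts on day 0 and 18.2% ± 9.29 on day 3 (SD, n = 3).

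In the step from day 0 to day 1, 0 of the 50 genes were called by edgeR in either direction (4.88% of all genes called lower and 5.49% higher). Of the 50, 2 passed at an unadjusted p under 0.05 (23.9% of all genes), HIST1H2BH and HIST1H4C, and DESeq2 called the same 2 lower (16.3% of all genes called). All day 1 libraries lay below day 0 for 5 of 50 (10%; 14.1% of all genes) and above for 0 (15.8% of all genes). From day 1 to day 2, 0 were called (3.34% of all genes lower and 4.93% higher), with 5 at an unadjusted p under 0.05 (22.3% of all genes) and 4 called lower by DESeq2 (14.1% of all genes called). Without replicate 1 of days 3 and 4, 2 were called lower (9.51% of all genes called). The median was -0.85. All day 2 libraries lay below day 1 for 11 of 50 genes (22%; 18.5% of all genes) and above it for 0 (17.2% of all genes). From day 2 to day 3, 4 of 50 were lower (8%; 0.287% of all genes called lower): HIST1H2AC, HIST1H2BD, HIST1H2BK and HIST1H3B. The median was -1.71 against 0.01 over all genes, and 46 of 50 fitted values were below 0. All day 3 libraries lay below day 2 for 26 of 50 (52%; 8.75% of all genes) and above it for 0 (9.1% of all genes). With the replicate number as a block, 7 were called lower by edgeR (3.39% of all genes called), adding HIST1H2AM, HIST1H2BJ and HIST1H3G. When the fit held those days alone, 24 cluster genes were tested and 0 called, as were 0% of all genes. DESeq2 called 14 lower (5.54% of all genes called). By edgeR, 2 were called without replicate 1 of days 3 and 4 (0.386% of all genes). From day 3 to day 4, 0 of 50 were called, as were 0% of all genes in either direction. Of the 50, 3 passed at an unadjusted p under 0.05 (6.17% of all genes) and DESeq2 called 0. The day 4 libraries lay above day 3 without overlap for 3 of 50 (6%; 4.95% of all genes) and below it for 0 (4.32% of all genes). The 3 with the low p were HIST1H3B, HIST1H3J and HIST2H2AC, which stood higher on day 4, from day 3 levels at or near 0.

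The 6 genes listed for known polyadenylated mRNA (HIST1H1C, HIST1H2AC, HIST1H2BC, HIST1H2BD, HIST1H2BK and HIST2H2BE) summed to 103 to 191 CPM on day 0 and 15.9 to 32.0 CPM on day 4. Of the 6, 5 were lower on day 4 (16.2% of all genes called lower) and HIST1H1C was not called. The median log2 fold change was -2.30 against -2.41 over the 50. By annotation, 9 of 18 tested genes with a transcript running more than 100 bases past the stem-loop were lower (median -2.23), and 12 of the 32 others (median -2.63). By promoter, 11 of 16 tested genes with ATTTGCAT in the window, HIST1H3D included by the start it shares with HIST1H2AD, were lower (median -2.71) and 5 of 23 with a matched promoter and no octamer (median -2.005). The octamer is found mostly in H2A and H2B genes, and neighbouring genes can share 1 copy, so the 16 are not all separate promoters. Median levels were 1.10 CPM per kilobase of coding sequence in the genes with it and 0.460 in those without. In the split by annotation they were 0.956 for the genes with the longer transcript and 0.473 for the others. Motif or annotation, class and level cannot be told apart, and these splits are descriptions with no test.

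H2A and H2B genes often lie head to head and share a promoter region. RefSeq starts placed 8 such pairs within 500 bases of each other, 194 to 248 bases apart, and the members of a pair could differ widely in level. Per kilobase of coding sequence, HIST1H2AG and HIST1H2BJ had means of 3.00 and 3.30 CPM. HIST2H2BE stood at 8.45 CPM per kilobase against 0.473 for its partner HIST2H2AC, which is 17.9-fold less, while HIST3H2A stood at 3.73 against 0.142 for HIST3H2BB and HIST1H2AM at 3.92 against 0.804 for HIST1H2BO. All 13 tested H2A and all 16 tested H2B genes had fitted values below 0 from day 0 to day 4. Any pairing of them would therefore share that direction, and it says nothing about the head-to-head pairs.

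Most histone genes outside the clusters are transcribed throughout the cycle and carry ordinary polyA tails. Between day 0 and day 4, 3 of the 12 tested rose and 2 fell (18% of all genes called higher and 16.2% lower). H1F0, the replacement linker histone of cells that stop dividing, stood at 18.7, 19.9 and 26.4 CPM on day 0 and 175, 377 and 217 CPM on day 4 (log2 fold change 3.56, SE 0.36, edgeR adjusted p = 4.7e-06), and its day 1 libraries, 95.4, 92.8 and 119 CPM, were already all above day 0 (edgeR adjusted p = 0.000417). H2AFY2, a macroH2A gene, rose from a mean of 15.7 to 91.5 CPM (2.54, SE 0.24), and the linker gene H1FX from 47.1 to 171 CPM (1.86, SE 0.59, edgeR adjusted p = 0.023). H2AFZ, the H2A.Z gene, fell from 1685 ± 1425 to 391 ± 111 CPM (SD, n = 3; -2.11, SE 0.51, edgeR adjusted p = 0.00558), where day 0 replicate 1 alone held 3329 CPM. The other gene called lower was H2AFX, which also gives a stem-loop mRNA, at 261 CPM on day 0 and 115 on day 4.

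Of the 22 tested genes that make and finish histone mRNA, 2 rose and 4 fell between day 0 and day 4. Over all genes tested, 18% were called higher and 16.2% lower, so these counts do not set the list apart. CCNE1, cyclin E1, whose kinase activates the histone gene coactivator NPAT, had a mean of 50.6 CPM at the start and 15.2 CPM at the end, a fall by 1.73 on the log2 scale (SE 0.32, edgeR adjusted p = 0.000797), and POU2F1, which binds the octamer, from 221 to 103 CPM (-1.11, SE 0.41, edgeR adjusted p = 0.0468). NCBP1, a cap-binding subunit, fell from 175 to 75.4 CPM (edgeR adjusted p = 0.0193). ZCCHC11, a terminal uridylyltransferase implicated in histone mRNA decay, rose from 60.1 to 233 CPM (1.95, SE 0.38, edgeR adjusted p = 0.00115), and it was already at 279 CPM on day 2. SLBP and NPAT, named after their values were seen, stood at 98.9 and 48.0 CPM on day 0 and 63.2 and 26.5 on day 4 and did not pass (edgeR adjusted p = 0.278 and 0.142).

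Of 15 histone chaperones, which carry histones to the nucleus and onto DNA, 6 were lower on day 4 and 0 higher, with a median of -0.65. Over all genes tested, 16.2% were called lower and 18% higher. NAP1L1 fell from 1724 to 564 CPM (-1.61, SE 0.42, edgeR adjusted p = 0.00834), ANP32E, which removes H2A.Z, from 348 to 120 CPM, and NASP, a carrier of H3 and H4, from 492 to 237 CPM.

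**Figure D5:**
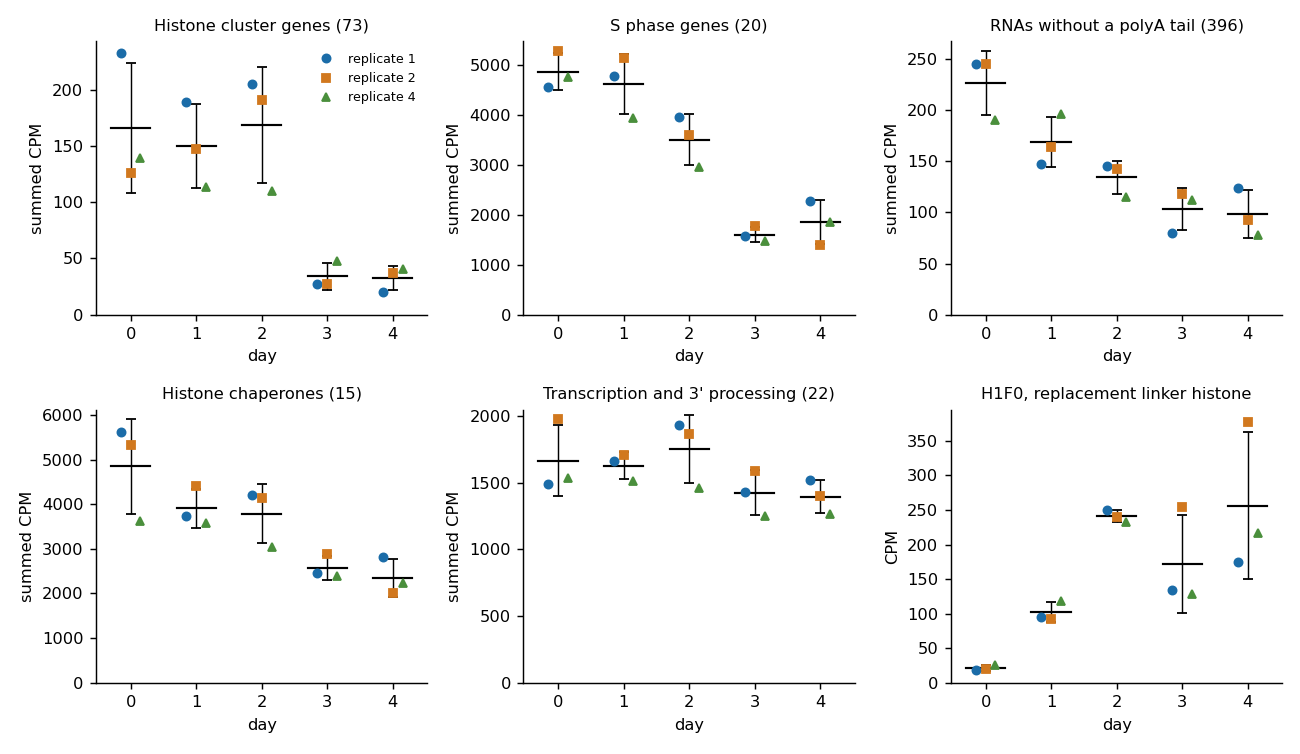
Summed CPM by library and day for the 73 histone cluster genes, 20 S phase genes, 396 RNAs without a polyA tail, 15 histone chaperones and 22 genes of histone transcription and 3′ processing, and CPM of H1F0; symbols are replicates, lines day means and bars ± SD. The histone and S phase sums were lower in every library of days 3 and 4 than in any of days 0 to 2, and H1F0 was higher in every library of days 1 to 4 than on day 0.

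The summed level of replication genes was, like the histone sum, lower on days 3 and 4 than before, but the earlier days differed. Of 20 S phase genes, 14 fell and 0 rose from day 0 to day 4 (median -1.61), with 16.2% of all genes called lower and 18% higher. From day 2 to day 3, 5 of the 20 were lower (0.287% of all genes called lower). The sum of the 20 ran from 4571 to 5289 CPM on day 0 and from 2961 to 3967 on day 2. It ran from 1471 to 1771 CPM on day 3 and from 1400 to 2281 on day 4. RRM2, a ribonucleotide reductase subunit, fell from 296 to 65.1 CPM (-2.19, SE 0.41, edgeR adjusted p = 0.000895), MCM4, a subunit of the replicative helicase, from 688 to 156 CPM, and CDC6, which loads that helicase, from 220 to 61.6 CPM. Of 10 genes listed for cell cycle exit and differentiation, 3 were higher and 0 lower (18% of all genes called higher and 16.2% lower). The 3 were the cyclin-dependent kinase inhibitors CDKN1A (9.91 to 31.4 CPM), CDKN1B (30.02 to 118) and CDKN1C (8.24 to 62.7). The list also holds the cyclins CCND1, CCND2 and CCND3, which were not called. Its sum showed no steady rise, with day means of 762, 1098, 707, 1153 and 968 CPM from day 0 to day 4. The part of these changes in the fall of the histone genes was not tested.

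The RNA without a polyA tail that a library held, a second measure, was also lower in every library of day 4 than of day 0. The 396 small nucleolar, Cajal body and related RNAs in the table summed to 191 to 245 CPM on day 0, 148 to 196 on day 1, 116 to 145 on day 2, 79.9 to 118 on day 3 and 78.4 to 124 on day 4. Of 210 tested, 44 fell and 1 rose from day 0 to day 4 (median -1.20), with 16.2% of all genes called lower and 18% higher. The course differed in part: from day 0 to day 2 the mean sum of these RNAs went from 227 to 134 CPM. Over the same days the histone sum went from 166 to 169 CPM, and without HIST1H2BK from 67.2 to 35.8 CPM. From day 2 to day 3 the histone sum went from 169 ± 51.3 to 34.1 ± 11.8 CPM (SD, n = 3). Without HIST1H2BK it went from 35.8 ± 1.95 to 13.6 ± 7.82 CPM. In that step the sum of the RNAs without a tail went from 134 ± 16.4 to 103 ± 20.7 CPM. Its libraries overlapped between the days, and 1 of 210 RNAs was lower (0.287% of all genes called lower). Many of these RNAs lie in introns of host genes, and reads of the hosts can be counted with them. Their part in the histone result was not tested.

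Across the 15 libraries, the genes outside the clusters with the course most like HIST1H2BK, by Pearson correlation of log2(CPM + 1) among 10918 genes averaging 5 CPM or more, were NUP88 (r = 0.92), GSPT1 (0.91), FAM83D (0.91), VRK1 (0.90) and EXOSC9 (0.90). The libraries share their day groups, so such r values are a description. NUP88, a nuclear pore gene, had day means of 123, 113, 99.3, 52.7 and 57.3 CPM from day 0 to day 4, a smaller step between days 2 and 3 than that of HIST1H2BK. Among the histone cluster genes themselves, HIST2H2BE (0.84) and HIST1H2AC (0.82) had the courses closest to HIST1H2BK.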

How the data were processed

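The 15 strand-specific libraries hold polyA-selected RNA of H9 cells, per the labels' protocols. TopHat2 2.0.14 and hg19 were used, per the submitters' processing notes; how reads were assigned to genes, with which annotation, and whether strand or multiple matches were considered, is not given in the sources used here. Levels of overlapping, antisense and near-identical genes are therefore uncertain. The authors deposited whole-number counts per gene symbol with no normalization, all of them even. Of 23398 entries, 44 identical repeats were dropped and 8 summed. The histone cluster genes, the lists and the tests were chosen with earlier results of these data known.

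Genes were tested by quasi-likelihood F-tests in edgeR 4.0.16 (with limma 3.58.1 under R 4.3.3) on all 15 libraries, with TMM scaling, genes filtered by filterByExpr (17401 kept), a mean per day and Benjamini-Hochberg adjustment over all genes tested; an adjusted p under 0.05 was called. CPM use TMM-scaled library sizes. The SE was taken as the size of the log2 fold change over the root of F. The biological coefficient of variation was 45.6%, and within each day chi-square over its degrees of freedom was 76.9 to 1125, so no library was counted as a copy of another. A count of 3 was worth 0.0206 to 0.0548 CPM. Ratios of few counts have exact 95% binomial intervals. The test was checked on simulated data. Same-numbered libraries deviated together in every pair for days 2 and 3 (correlations 0.40 to 0.76) and days 3 and 4 (0.21 to 0.76). The numbers may pair the libraries there, a pairing read from the data and not from the labels. The other comparisons had a pair under 0.1. The reported edgeR p-values come from the fit without a replicate term, and the replicate number was a block in an alternative fit only.

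Genes named were HIST1H2BK, the 12 cluster genes of highest mean CPM, every cluster gene called in any test, per list up to 4 called genes with the largest day 4 against day 0 change, and the 5 genes most like HIST1H2BK. Alternatives were DESeq2's size factors, library totals alone, no filter, CPM over 1 in 3 libraries, DESeq2 1.42.0, the replicate number as a block, the compared days fitted alone, counts halved, each library left out and, added after the data were seen, replicate 1 of days 3 and 4 left out together.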

Additional observations from a re-analysis of the deposited data

How the results depend on the processing

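The number of histone cluster genes called by the joint test was 12 with CPM over 1 in 3 libraries, where 14 were tested (41.8% of all genes called). It was 19 to 26 with each library left out. For day 4 against day 0 it was 12 of 14 with that filter (38.3% of all genes called). It was 16 to 21 with each library left out, 26 with DESeq2 and 19 without replicate 1 of days 3 and 4. For day 3 against day 2 it was 2 with library totals alone (0.828% of all genes called), 14 with DESeq2 (5.54%) and 0 with only the days compared (0%). It was 2 without replicate 1 of days 3 and 4 (0.386%) and 0 to 5 with each library left out. The value of 0 in these last fits came from leaving out day 2 replicate 1, day 2 replicate 2 or day 3 replicate 1 (0.0281%, 0.0393% and 0.101%). For day 2 against day 1 it was 4 with DESeq2 (14.1% of all genes called), 3 with only the days compared (17.6%) and 1 with counts halved (9.24%). It was 2 without replicate 1 of days 3 and 4 (9.51%) and 0 to 2 with each library left out. For day 1 against day 0 it was 2 with DESeq2 (16.3%) and 0 to 1 with each library left out. For day 4 against day 3 every alternative gave 0. The causes of these differences were not tested, except that the stricter filter leaves fewer genes and the smaller fits fewer libraries. The share of all genes called also moved with the setting. Where no share is printed, the counts are not set against other genes.

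Over all days, same-numbered libraries deviated together (correlation over 0.1) in 22 of 30 pairs, from -0.37 to 0.76, and 13 of 15 libraries correlated best with their own number. With the replicate block, 7 genes were called lower for day 3 against day 2 (3.39% of all genes called) and 2 for day 2 against day 1 (14.2%). It called 23 for day 4 against day 0 and 27 by the joint test, and 0 for day 4 against day 3 and day 1 against day 0.

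HIST1H1C changed sign for day 4 against day 0, from -0.32 to 0.07 when day 0 replicate 4 was left out, to 0.21 when day 4 replicate 1 was, and to 0.20 without replicate 1 of days 3 and 4. Its values with each library left out ran from -0.71 to 0.21. The other fold changes of named cluster genes were counted once per gene and alternative, and none changed sign. For day 4 against day 0, 32 such combinations lost and 5 gained a call, and 639 stayed the same. For day 3 against day 2, 36 lost it and 59 stayed the same. Class sums moved by less than their SD under other scalings. Without a single library, the H1 sum of day 3 moved from 6.89 to 3.59 CPM (without replicate 4). Most cluster genes had under 1 CPM, so their folds rest on few counts.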
